A study of Homo sapiens with 6 samples.

Results

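The genes for heat shock proteins and chaperonins were followed in OCI LY10, a human lymphoma cell line, cultured with the MEK inhibitor pimasertib or with its solvent control DMSO. The set held 40 listed genes, chosen by name from the chaperone families and their partners. Of these, 39 had a probe and 38 had at least 1 probe above the background threshold, a log2 intensity of 6.7 exceeded in at least 3 of 6 arrays, out of 11100 genes that passed the same filter. HSPA1A, an inducible HSP70, had 1 probe that stayed below the threshold on all 6 arrays, and AHSA1, an activator of HSP90, was not analysed here.

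Molecular chaperones bind unfolded or partly folded proteins and help them reach or keep their native form. In the cytosol, HSP70 and HSP90 work in turn on client proteins, which include kinases and transcription factors, and co-chaperones set the pace of their ATP cycles. The ring-shaped CCT chaperonin, also called TRiC, folds actin, tubulin and other cytosolic proteins, whereas HSPD1 with HSPE1 and HSPA9 serve mitochondria, and HSPA5 and HSP90B1 serve the endoplasmic reticulum (ER). Heat and other proteotoxic stress raise many cytosolic chaperones through the transcription factor HSF1, and ER stress raises the ER chaperones through the unfolded protein response.

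Each treatment had 1 array at 4 h, 1 at 8 h and 1 at 12 h, so that no treatment and time was repeated. The labels give no dose and leave unsaid whether each time had a culture of its own. Every p-value below thus reflects the variation among 6 arrays, part of which may be technical. Values are the authors' normalized log2 intensities. A single cell line grown in vitro limits the series as a model. Of 8 B cell markers, 7 had a probe and 6 passed the filter (CD79A, CD79B, MS4A1, CD22, BLNK and CD37), whereas PAX5 did not. Among markers of other cell types, 1 of 5 T cell, 2 of 4 myeloid, 1 of 4 fibroblast and 2 of 4 epithelial genes with a probe passed, with mean levels of at most 7.54. Mean levels of the B cell markers that passed ran from 6.82 to 11.67, so that the dimmest lay below some of these. Summed over the 6 B cell markers, the log2 levels were 57.1 to 58.0 in DMSO and 56.2 to 56.7 with pimasertib, and their part in the results was not tested. The least typical array was DMSO at 8 h: its correlation across genes with the remaining arrays averaged 0.914, and the other arrays' averages were 0.944 to 0.969.

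The first comparison was pimasertib against DMSO over the 3 times. Chaperone genes leaned higher with pimasertib, without a call: 25 of the 38 (65.8%, against 52.7% of all genes) had a mean difference above 0 and 13 below, with a median of 0.23 on the log2 scale against 0.02 over all 11100 genes. With the mean over a gene's kept probes in place of the brightest probe, that median was 0.12. In limma over all genes, 0 genes and 0 chaperone genes passed an adjusted p of 0.05. An unadjusted p under 0.05 was found for 4 chaperone genes, or 10.5%, against 836 of all genes, or 7.53%. HSPA1B, HSPE1 and BAG3 were the 3 on the higher side and TCP1 was the lower one. The 3 pimasertib arrays lay all above the 3 DMSO arrays in 5 chaperone genes (8.4% of all genes) and all below in 2 (8.22% of all genes). Together these 7 genes were 18.4% of the chaperone genes, near the 16.6% of all genes. An exact test of 3 arrays against 3 cannot give a p below 0.1. Higher at all 3 times were 11 chaperone genes, or 28.9%, against 17.4% of all genes, and lower at all 3 times were 2, or 5.26%, against 15.7%.

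The balance differed between times, and each time rests on 1 array per treatment, so these are values with no test. At 4 h the chaperone genes were close together, with differences from -0.61 to 0.37 and a median of 0.04. At that time 0 were at least 1.5-fold higher and 1, TCP1, was at least 1.5-fold lower, against 0.685% and 0.694% of all genes. At 8 h the median was 0.26, with 14 genes at least 1.5-fold higher (36.8%, against 15.4% of all genes) and 3 at least 1.5-fold lower (7.89%, against 10.4%). At 12 h the median was 0.10, with 10 at least 1.5-fold higher (26.3%, against 9.05% of all genes) and 6 lower (15.8%, against 8.34%). A 2-fold difference was passed upward by 6 genes at 8 h (15.8%, against 6.74% of all genes): HSPA1B, HSP90AB1, CHORDC1, CCT3, HSPA9 and HSPE1. Downward at 8 h it was passed by TCP1 (2.63%, against 1.23%). At 12 h the 4 genes past 2-fold upward were others but for HSPE1, namely DNAJB9, HSPA5 and DNAJB1 (10.5%, against 2.81% of all genes), and CCT8 was past it downward (2.63%, against 1.28%). The medians over all genes were 0.01, 0.02 and -0.01 in the same order. A DMSO array below the background threshold made the difference a lower bound for HSPA1B at 8 h and for HSPE1, HSPA5, DNAJB9, DNAJB4, DNAJC3 and HSF1 at 12 h. With the threshold in place of that array, the bounds were at least 1.06 for HSPA1B, 4.99 for HSPE1, 1.21 for HSPA5 and 1.61 for DNAJB9 on the log2 scale. Without the 8 h pair the median over the chaperone genes was 0.07.

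**Figure D1:**
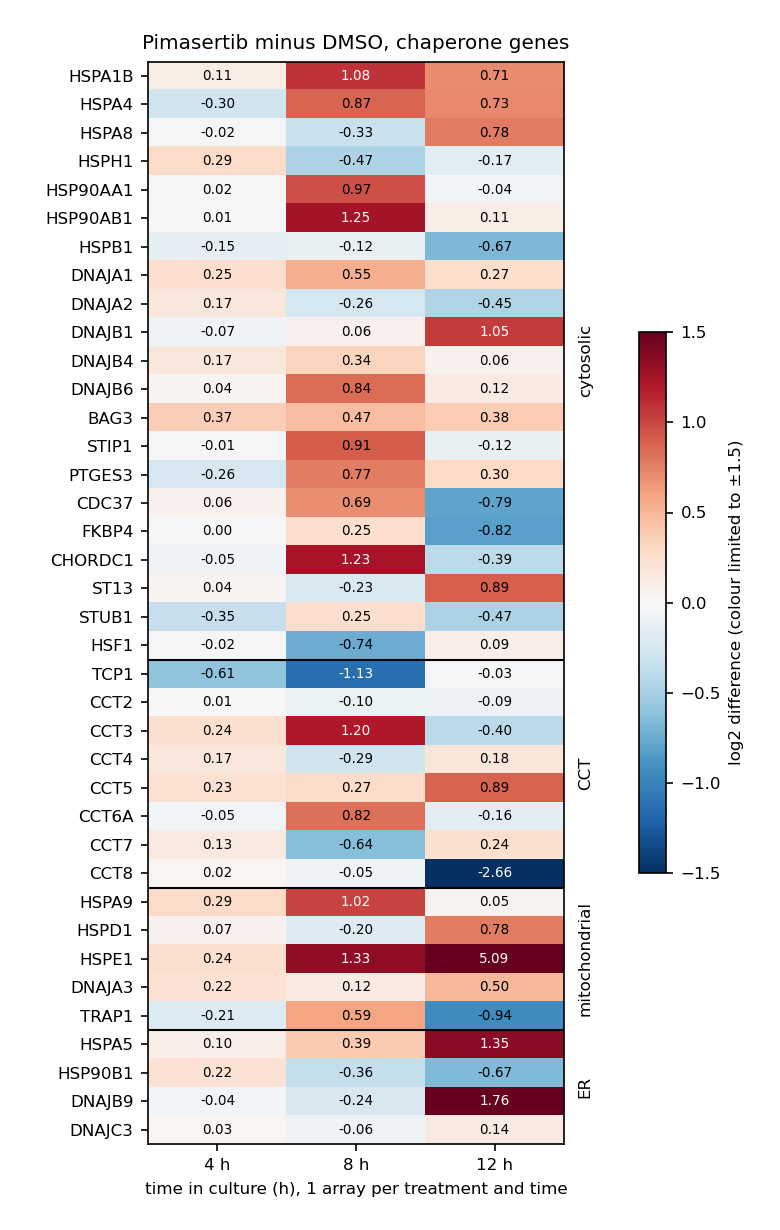
Heat map of pimasertib minus DMSO (log2, colour limited to ±1.5) for the 38 measured chaperone genes, in rows by compartment, at 4, 8 and 12 h. The 4 h column is pale, and the strong colours of the 8 h column (HSP90AB1, CHORDC1, CCT3) are not those of the 12 h column (DNAJB9, HSPA5, CCT8), whereas HSPE1 is dark in both.

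By compartment, the medians at 8 h were furthest above 0 in the cytosolic and mitochondrial groups. The 21 cytosolic genes had medians of 0.01, 0.47 and 0.09 at 4, 8 and 12 h, and the 5 mitochondrial genes had 0.22, 0.59 and 0.50. The medians of the 8 CCT genes were 0.08, -0.07 and -0.06, over single genes that ran from -1.13 to 1.20 at 8 h and from -2.66 to 0.89 at 12 h. For the 4 ER genes the medians were 0.06, -0.15 and 0.74, and at 12 h HSPA5 and DNAJB9 were higher, each against a DMSO array below background, and HSP90B1 lower. Differences between compartments were not tested.

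**Figure D2:**
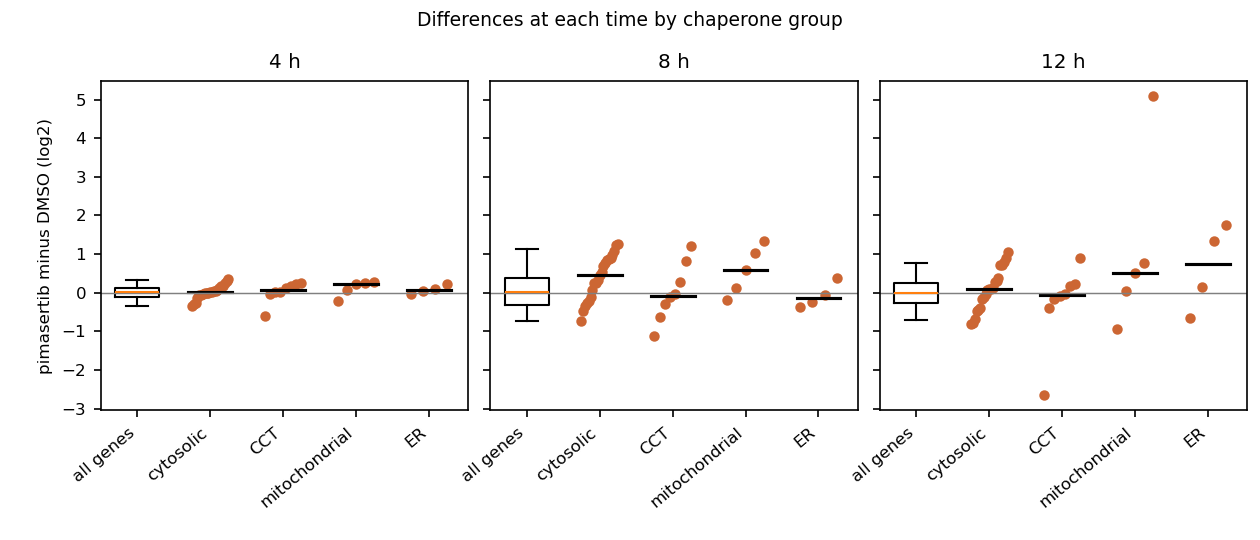
Pimasertib minus DMSO (log2) at 4, 8 and 12 h, with each point a gene and each bar the median of its group. The box shows the quartiles of all 11100 genes and its whiskers the 5th and 95th percentiles; cytosolic genes spread above it at 8 h, and the highest point at 12 h is HSPE1, measured at 5.09 against an array below background.

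Among cytosolic HSP70 genes, the stress-inducible HSPA1B was dim, at 7.80, 6.68 and 6.88 in DMSO and 7.91, 7.76 and 7.59 with pimasertib at 4, 8 and 12 h. The DMSO arrays of 8 and 12 h were the low ones, the former under the background threshold, and the groups overlapped through the DMSO array of 4 h. Its difference over the 3 times was 0.63 ± 0.22 (SE, 3 arrays per group; limma adjusted p = 0.647). HSPA1A and HSPA1B are near-identical copies, so which of them the probe reads is uncertain. HSPA4, an HSP110-type exchange factor for HSP70, was at 9.36, 8.36 and 8.46 in DMSO and 9.07, 9.23 and 9.19 with pimasertib. The DMSO arrays of 8 and 12 h were again lower, while that of 4 h was the highest of all 6, and the mean difference was 0.43 ± 0.25. The other HSPA4 probe gave 0.10, 0.70 and -0.09.

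HSPA8, the constitutive HSP70 of the cytosol, was at 12.83, 13.37 and 12.68 in DMSO and 12.81, 13.03 and 13.47 with pimasertib. The arrays of both treatments covered nearly the same span, with a mean difference of 0.14 ± 0.24, and the other HSPA8 probe averaged 0.0007. HSPH1, an HSP110 that also acts as an exchange factor, was at 11.53, 12.51 and 12.41 in DMSO and 11.82, 12.04 and 12.24 with pimasertib. It was the chaperone gene with the largest difference upward between DMSO arrays of 4 and 8 h, at 0.98, whereas its mean treatment difference was -0.11 ± 0.20.

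Both cytosolic HSP90 genes were low on 1 array, the DMSO array of 8 h. HSP90AB1, the constitutive HSP90, was at 11.62, 10.46 and 11.82 in DMSO and 11.63, 11.71 and 11.92 with pimasertib. Apart from the DMSO array of 8 h its values ran from 11.62 to 11.92, and the mean difference of 0.46 ± 0.27 (SE) was 0.06 without the 8 h pair. HSP90AA1, the stress-inducible HSP90, differed by 0.02, 0.97 and -0.04 at 4, 8 and 12 h. Of its 2 other kept probes, 1 gave 0.11, 0.81 and -0.15, and a much dimmer one gave 0.21, -0.36 and -0.25.

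The small heat shock protein gene HSPB1, whose product holds unfolded proteins without using ATP, went the other way. Its values were 11.32, 11.30 and 11.44 in DMSO and 11.17, 11.18 and 10.77 with pimasertib. Every pimasertib array lay below every DMSO array, with the array of 12 h the lowest, and the difference was -0.31 ± 0.19 (SE, 3 arrays per group; limma adjusted p = 0.686). No other kept probe of HSPB1 was at hand to check it.

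J-domain proteins deliver clients to HSP70 and start its ATP hydrolysis. DNAJA1, an HSP40 of the cytosol, was at 11.66, 11.61 and 12.12 in DMSO and 11.91, 12.16 and 12.39 with pimasertib. Both treatments were highest at 12 h, pimasertib was higher at each time, and the mean difference was 0.35 ± 0.17 (SE; limma adjusted p = 0.650). DNAJB1, a heat-inducible HSP40, was at 8.76, 8.54 and 7.18 in DMSO and 8.69, 8.60 and 8.23 with pimasertib. Its 12 h difference of 1.05 rests on the DMSO array of that time, which lay -1.41 from the median of the other 5 arrays. Without the 12 h pair its mean difference was -0.005 in place of 0.35. The other J-domain genes, DNAJA2, DNAJB4 and DNAJB6, had mean differences of -0.18, 0.19 and 0.33.

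BAG3, an HSP70 exchange factor induced by HSF1 that routes clients to autophagy, had the steadiest difference. It was at 7.73, 7.51 and 7.60 in DMSO and 8.10, 7.97 and 7.97 with pimasertib. All 3 pimasertib arrays were above all 3 DMSO arrays, by 0.37, 0.47 and 0.38 at 4, 8 and 12 h. The mean of 0.40 ± 0.16 (SE) did not pass over all genes (limma adjusted p = 0.647) and ran from 0.37 to 0.42 when a time pair was left out. BAG3 had 1 kept probe.

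Of 8 co-chaperones of HSP70 and HSP90, 4 were at least 1.5-fold higher and 0 lower at 8 h, against 15.4% and 10.4% of all genes. At 12 h 1 was higher and 2 lower, against 9.05% and 8.34% of all genes. CHORDC1, an HSP90 partner also called morgana, was at 9.18, 7.94 and 9.92 in DMSO and 9.13, 9.18 and 9.53 with pimasertib. Its DMSO array of 8 h lay -1.23 from the median of the other 5, and the difference changed sign from 1.23 at 8 h to -0.39 at 12 h. STIP1, which bridges HSP70 and HSP90, PTGES3, the p23 co-chaperone, and CDC37, which brings kinases to HSP90, differed by 0.91, 0.77 and 0.69 at 8 h. At 12 h the same genes were at -0.12, 0.30 and -0.79. FKBP4, an immunophilin, was at 0.25 at 8 h and -0.82 at 12 h. ST13, an HSP70 partner, was at -0.23 and 0.89, and STUB1, the ubiquitin ligase CHIP, at 0.25 and -0.47. The other kept STUB1 probe gave 1.49 and -0.62 at these times and averaged 0.15, against -0.19 by the brighter one. Over the 3 times these 8 co-chaperone genes, BAG3 included, had mean differences from -0.19 to 0.40.

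HSF1 itself was close to background. It was at 6.75, 7.52 and 6.62 in DMSO and 6.73, 6.77 and 6.71 with pimasertib. The DMSO array of 8 h was the only one more than 0.10 above the threshold, so the mean difference of -0.22 ± 0.21 (SE) rests on it.

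HSF1 binds heat shock elements, which are inverted repeats of the letters GAA. The RefSeq promoter windows (GRCh38.p14, 250 bases before to 50 after a gene start) of 35 of the 40 listed genes were searched on both strands, in 46 windows. A pair of repeats (GAANNTTC or TTCNNGAA) stood in 18 windows, or 39.1%, against 13.5% of all 35116 windows. A run of 3 repeats (GAANNTTCNNGAA or TTCNNGAANNTTC, which each contain the shorter forms) stood in 7 windows, or 15.2%, against 0.49% of all. The 7 genes were CHORDC1, DNAJA1, DNAJB6, HSP90AA1, HSP90AB1, HSPA8 and HSPD1. Their median differences were 0.02, 0.84 and 0.12 at 4, 8 and 12 h, against 0.10, 0.20 and 0.10 for the 26 measured chaperone genes with a window and no such run. At 8 h 5 of the 7 were higher, against 15 of the 26, while HSPA8 and HSPD1 were at -0.33 and -0.20. The 8 h median of the 7 is the value of the brightest DNAJB6 probe. The other kept DNAJB6 probe gave 0.65, -0.10 and 0.12 at the 3 times. For 41 other tested genes with a run of 3 repeats the medians were 0.04, 0.05 and 0.01. By the pair of repeats the contrast was smaller and differed in direction between times: the 16 measured chaperone genes with it had medians of 0.44 at 8 h and 0.08 at 12 h, and the 17 without it 0.27 and 0.24. These are descriptions of letters in a window and of medians, with no test. The windows of HSP90AB1 and CHORDC1, whose DMSO array of 8 h was the lowest of the 6, are shown with that of HSPD1, and capitals mark the repeats; HSPA5 is added for the ER element described further on, which its capitals mark.
HSP90AB1 (chr6:44247693-44247992, plus strand): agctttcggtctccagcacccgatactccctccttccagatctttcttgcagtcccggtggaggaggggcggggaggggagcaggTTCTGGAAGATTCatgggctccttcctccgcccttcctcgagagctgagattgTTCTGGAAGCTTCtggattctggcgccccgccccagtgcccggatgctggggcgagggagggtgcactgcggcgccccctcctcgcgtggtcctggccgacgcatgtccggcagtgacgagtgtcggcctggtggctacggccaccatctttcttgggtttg
CHORDC1 (chr11:90223000-90223299, minus strand): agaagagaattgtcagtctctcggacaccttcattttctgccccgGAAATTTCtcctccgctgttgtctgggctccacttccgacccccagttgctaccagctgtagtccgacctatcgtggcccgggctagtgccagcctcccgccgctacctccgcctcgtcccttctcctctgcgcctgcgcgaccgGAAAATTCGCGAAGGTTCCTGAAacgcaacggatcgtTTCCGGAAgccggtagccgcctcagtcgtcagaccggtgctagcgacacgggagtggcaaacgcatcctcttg
HSPD1 (chr2:197499791-197500090, minus strand): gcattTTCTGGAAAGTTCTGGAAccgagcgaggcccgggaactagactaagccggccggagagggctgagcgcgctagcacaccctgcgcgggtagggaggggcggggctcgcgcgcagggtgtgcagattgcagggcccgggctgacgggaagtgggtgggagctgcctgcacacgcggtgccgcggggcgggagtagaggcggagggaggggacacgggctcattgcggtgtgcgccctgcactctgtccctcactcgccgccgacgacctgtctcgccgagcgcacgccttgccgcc
HSPA5 (chr9:125241294-125241593, minus strand): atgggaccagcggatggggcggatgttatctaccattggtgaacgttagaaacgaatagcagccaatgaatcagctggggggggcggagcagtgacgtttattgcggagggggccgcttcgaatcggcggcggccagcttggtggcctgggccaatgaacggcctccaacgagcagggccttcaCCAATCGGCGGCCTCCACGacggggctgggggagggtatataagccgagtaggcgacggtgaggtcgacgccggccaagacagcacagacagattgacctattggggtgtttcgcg

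The CCT chaperonin is built of 8 different subunits, and all 8 genes were measured. Their mean differences ran from -0.89 to 0.46, with 4 above 0 and 4 below. TCP1, the alpha subunit, was at 10.96, 11.54 and 10.66 in DMSO and 10.35, 10.42 and 10.63 with pimasertib. Every pimasertib array was below every DMSO array, though at 12 h by only 0.03, and the difference was -0.59 ± 0.23 (SE, 3 arrays per group; limma adjusted p = 0.647). Its 2 other kept probes gave 0.16 and -0.17 over the 3 times, so that 1 of the 2 was lower as well, by less. By time the former gave 0.35, 0.55 and -0.42, and the latter 0.005, -0.45 and -0.06. Neither was lower at 4 h, and at 8 h the former was higher.

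CCT5, the epsilon subunit, was at 7.74, 7.66 and 7.57 in DMSO and 7.97, 7.93 and 8.46 with pimasertib. The groups did not overlap, the pimasertib array of 12 h was the highest, and the difference was 0.46 ± 0.20 (SE; limma adjusted p = 0.647). CCT8, the theta subunit, was at 11.90, 12.11 and 12.04 in DMSO and 11.93, 12.07 and 9.38 with pimasertib. Of these, 5 arrays agreed within 0.21 and the pimasertib array of 12 h lay -2.66 from their median. The mean difference of -0.89 ± 0.50 (SE) was -0.01 without the 12 h pair.

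CCT3, the gamma subunit, was at 10.24, 9.55 and 10.96 in DMSO and 10.49, 10.75 and 10.56 with pimasertib. Its differences of 0.24, 1.20 and -0.40 at the 3 times were set against -0.16, -0.65 and 0.33 by its other kept probe, the opposite sign at each time. CCT6A, the zeta subunit, was named after its values were seen because its 2 kept probes differed most among CCT genes at 12 h. The brighter probe gave -0.05, 0.82 and -0.16 and the other 0.23, 2.29 and 1.99. On that other probe every pimasertib array lay above every DMSO array. Its mean difference was 1.504 ± 0.39 (SE, limma over all kept probes, adjusted p = 0.691). CCT2, CCT4 and CCT7 had mean differences of -0.06, 0.02 and -0.09. For CCT7 a further kept probe averaged 0.36, with 0.96 at 4 h, and another averaged -0.44, with -0.98 at 8 h.

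Mitochondrial chaperones included HSPE1, which had 1 array far below the rest. HSPE1, the co-chaperonin that caps the HSPD1 ring, was at 11.49, 10.49 and 6.60 in DMSO and 11.73, 11.82 and 11.69 with pimasertib. The 3 pimasertib arrays lay within 0.13 of each other, while the DMSO array of 12 h was below the background threshold and lay -5.09 from the median of the other 5. Its 12 h difference was therefore a lower bound of 4.99 on the log2 scale, or at least 31.8-fold. Over the 3 times it was at 2.22 ± 0.81 (SE, 3 arrays per group; limma adjusted p = 0.647), and at 0.78 without the 12 h pair, with the low array entered at its measured value.

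The other kept HSPE1 probe did not show that low array. It was at 10.71, 10.54 and 10.73 in DMSO and 10.13, 10.11 and 9.41 with pimasertib. Here every pimasertib array lay below every DMSO array, and the difference was -0.78 ± 0.21 (SE, limma over all kept probes, adjusted p = 0.691). The sign for HSPE1 therefore depended on the probe, and with all 6 arrays required above background only this lower one was left.

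HSPD1, the mitochondrial chaperonin HSP60, had 3 kept probes that likewise went different ways. The brightest was at 12.60, 12.93 and 12.55 in DMSO and 12.67, 12.73 and 13.33 with pimasertib, a mean difference of 0.22 ± 0.22 (SE). A further probe was at 11.69, 12.11 and 12.39 in DMSO and 11.50, 11.54 and 11.16 with pimasertib, without overlap, and averaged -0.66 ± 0.23 (SE, limma over all kept probes, adjusted p = 0.691). The third averaged 0.37. For HSPD1 and HSPE1 alike, 1 probe was lower with pimasertib at all 3 times while the brightest probe averaged higher. The genes stand head to head, with RefSeq starts 105 bases apart in the nearest pair of windows, and whether they share a change was not tested.

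HSPA9, the mitochondrial HSP70, was at 11.12, 10.45 and 11.84 in DMSO and 11.41, 11.46 and 11.89 with pimasertib. It was higher at each time, with the DMSO array of 8 h the lowest, and the difference of 0.45 ± 0.22 (SE; limma adjusted p = 0.651) was 0.17 without the 8 h pair. DNAJA3, a mitochondrial HSP40, was at 10.77, 10.79 and 10.56 in DMSO and 10.99, 10.91 and 11.07 with pimasertib. Its groups did not overlap and were 0.28 ± 0.17 apart (SE; limma adjusted p = 0.687). TRAP1, the mitochondrial HSP90, differed by -0.21, 0.59 and -0.94.

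**Figure D3:**
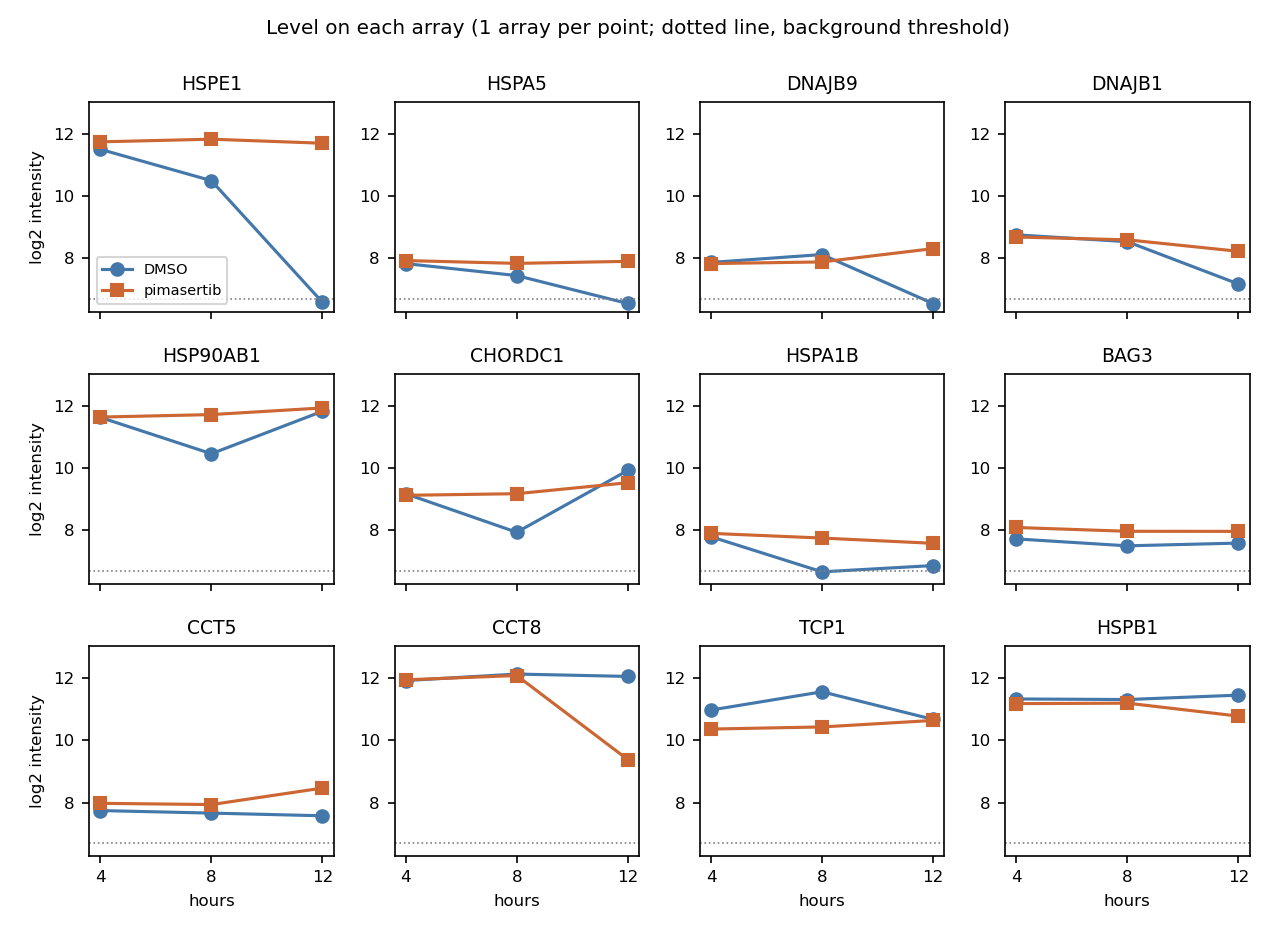
Log2 intensity on each of the 6 arrays against hours for 12 chaperone genes, with DMSO in circles, pimasertib in squares and the background threshold of 6.7 dotted. The DMSO line of HSPE1 ends at 6.60, the pimasertib line of CCT8 ends at 9.38, and the 2 lines of BAG3 run parallel.

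ER chaperones were parted at 12 h. HSPA5, the ER HSP70 also called BiP, was at 7.84, 7.45 and 6.56 in DMSO and 7.93, 7.84 and 7.91 with pimasertib. Pimasertib arrays ran from 7.84 to 7.93 and lay above every DMSO array, and the DMSO array of 12 h was below the background threshold. The difference was 0.61 ± 0.26 (SE, 3 arrays per group; limma adjusted p = 0.647), and 0.24 without the 12 h pair. DNAJB9, an ER J-domain protein, was at 7.87, 8.13 and 6.56 in DMSO and 7.84, 7.89 and 8.31 with pimasertib. Again the DMSO array of 12 h was low and below the threshold, and its mean difference of 0.50 ± 0.38 (SE) was -0.14 without the 12 h pair.

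HSP90B1, the ER HSP90 also called GRP94, went the other way at 12 h. It was at 12.08, 12.52 and 12.58 in DMSO and 12.30, 12.16 and 11.92 with pimasertib. DMSO was higher at 8 and 12 h but not at 4 h, and the mean difference was -0.27 ± 0.21 (SE; limma adjusted p = 0.733). DNAJC3, an ER J-domain protein that also restrains the kinase PERK, was near background with a difference of 0.04. The ER stress response element, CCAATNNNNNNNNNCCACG, stood in the windows of HSPA5 and HSP90B1, or in 4.35% of the 46 windows against 0.0769% of all. The window of HSPA5 is printed above with the element in capitals. At 12 h HSPA5 was higher by at least 1.21, against a DMSO array below background, and HSP90B1 was at -0.67.

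The low single arrays followed a pattern over the chaperone genes. In 11 genes an array lay at least 2-fold from the median of the other 5, in 12 instances, and in all 12 the array was lower. Of these, 7 were the DMSO array of 8 h (18.4% of chaperone genes, against 6.53% of all genes), 4 the DMSO array of 12 h (10.5% against 2.37%) and 1 the pimasertib array of 12 h (2.63% against 0.676%). Low arrays also outnumbered high ones over all genes, with 1077 instances against 137. The 7 genes low in the DMSO array of 8 h were HSPA1B, HSP90AA1, HSP90AB1, CHORDC1, CCT3, HSPA9 and HSPE1. In 4 of the 12 instances the gene had another kept probe, and none of those probes was 2-fold low on the same array. The bright further probe of HSP90AA1 was low there by less, at -0.81 from its median, and the other further probes of these genes were above theirs, by 0.34 to 0.65. Chaperone probes were bright, with a median level of 10.15 against 7.84 over all genes, and the part of brightness in these counts was not tested.

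Several probes of the same gene gave a check inside each array. Of the 38 genes, 12 had several kept probes, with 16 further probes in all. The sign of the mean difference was opposite to that of the brightest probe in 8 of 16 further probes, against 45.2% of 3627 such probe pairs over all genes. The median gap between probes was 0.38 at 4 h, 0.81 at 8 h and 0.38 at 12 h, against 0.17, 0.50 and 0.37 over all pairs. The measured HSPE1 gap at 12 h was 6.41, with the DMSO array of 1 probe below background. Good agreement was seen for HSPA8 at 8 h, where the probes gave -0.33 and -0.34, and for the 2 bright probes of HSP90AA1. RefSeq names at least 1 pseudogene after 22 of the 40 listed genes, or 144 in all, with 28 for HSPE1, 22 each for HSPD1 and ST13 and 20 for HSPA8. Whether probes read such copies or other transcript ends was not tested.

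**Figure D4:**
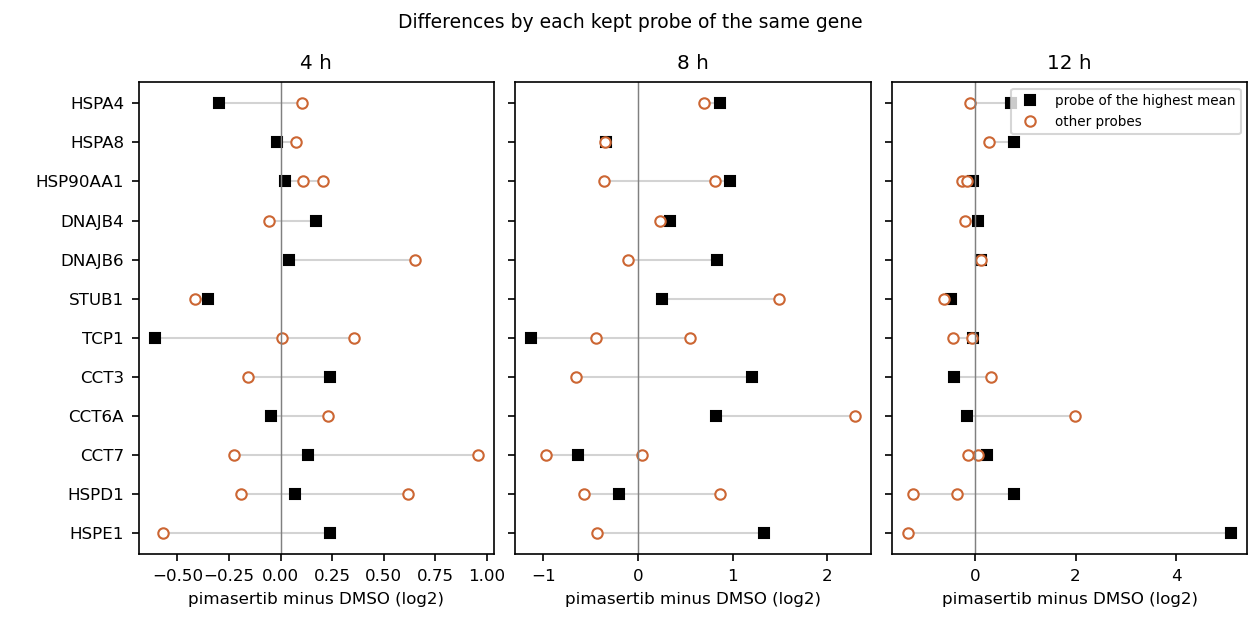
Pimasertib minus DMSO (log2) by each kept probe of the 12 chaperone genes with several, at 4, 8 and 12 h. Squares are the probe of the highest mean, open circles the others, and grey lines join the probes of a gene; the HSPE1 probes at 12 h stand 6.41 apart. The 3 panels have different scales.

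The next question was how the genes moved with time inside each treatment. DMSO arrays varied more than pimasertib arrays in 32 of 38 chaperone genes, or 84.2%, against 79.4% of all genes. The median range over the 3 DMSO arrays was 0.87 (0.51 over all genes) and that over the 3 pimasertib arrays 0.34 (0.24 over all genes). From 4 to 8 h in DMSO, 13 chaperone genes passed 1.5-fold downward and 3 passed it upward, against 15.3% and 10.9% of all genes. With pimasertib over the same interval 0 were past that fold in either direction, against 0.045% lower and 0.108% higher over all genes, and the widest steps were -0.28 for PTGES3 and 0.27 for CCT3. From 4 to 12 h the counts were 8 lower and 4 higher in DMSO (6.77% and 4.08% of all genes) and 1 lower and 2 higher with pimasertib (3.68% and 2.24%). HSPH1, CCT7 and HSF1 were the 3 higher ones at 8 h in DMSO.

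**Figure D5:**
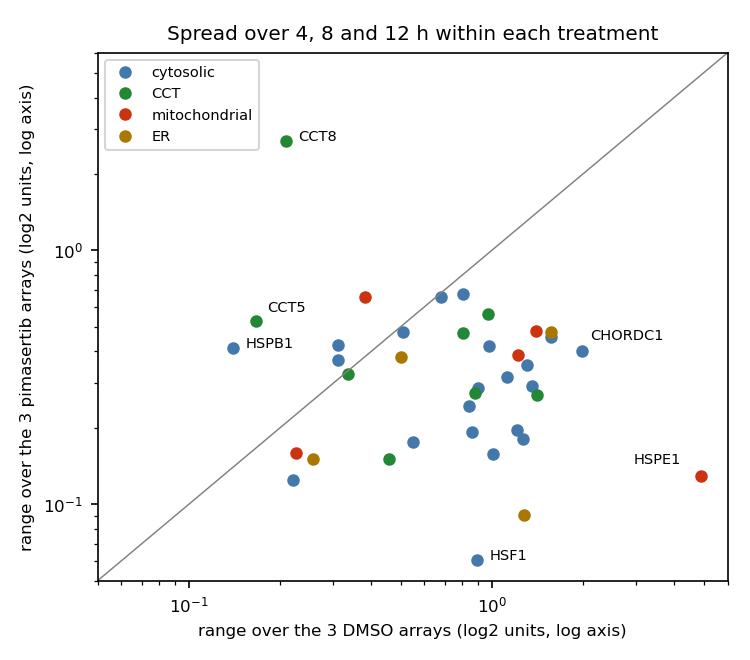
Range over 4, 8 and 12 h (log2 units, both axes logarithmic) within DMSO, across, and within pimasertib, upward, with each point a chaperone gene. Below the diagonal lie 32 of 38 genes, where the DMSO range is the wider one, and CCT8 stands far above it.

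A further fit with hours as a number asked whether the treatment difference grew or shrank per hour. In limma 0 of 11100 genes passed an adjusted p of 0.05, and 179 genes (1.61%) had an unadjusted p under 0.05. Among chaperone genes these were HSPE1, at 0.61 per hour, and HSPA5, at 0.16 per hour, both with an adjusted p that rounds to 1. Both slopes rest on the low DMSO array of 12 h. The slope in DMSO alone passed for 0 genes in limma. Before adjustment 337 genes (3.04%) were under 0.05, among them HSPE1 at -0.61, DNAJB1 at -0.20 and HSPA5 at -0.16 per hour. The slope with pimasertib passed for 0 genes in limma, and before adjustment 87 (0.784%) were under 0.05, of which 1 was a chaperone gene, CCT8 at -0.32 per hour.

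Further genes of the same machinery were listed by name to set beside these. Of 27 further HSP70, J-domain and small heat shock genes 18 were measured, with medians of 0.07, -0.08 and 0.16. At all 3 times 4 of the 18 were higher and 0 lower, against 17.4% and 15.7% of all genes. DNAJB14, an ER membrane J-domain protein, was at 0.75 ± 0.21 (SE; limma adjusted p = 0.647), with 0.30, 1.12 and 0.83 by time and no overlap of the groups. Among 14 measured of 18 further co-chaperones and HSF genes, 1 was higher and 2 lower at all 3 times, against the same 17.4% and 15.7%. TOMM34 was at -0.44, BAG6 at -0.38 and FKBP5, an immunophilin induced by glucocorticoids, at 0.53.

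Of 21 ER folding and unfolded protein response genes 17 were measured, with 2 higher and 3 lower at all 3 times (17.4% and 15.7% of all genes). Their medians were 0.01, -0.31 and -0.15. DNAJB11, a BiP co-chaperone, was at 0.43, while DDIT3, which encodes the stress factor CHOP, was at -0.44 and CRELD2 at -0.58. Each had a limma adjusted p of 0.647. Of 13 mitochondrial import, folding and protease genes 12 were measured, with 1 higher and 2 lower at all 3 times and medians of 0.04, 0.06 and -0.15. At 12 h 9 of the 12 were below 0, against 5706 of all 11100 genes. In 2 of the 12 every pimasertib array lay below every DMSO array, which held for 8.22% of all genes. GRPEL1, the exchange factor of HSPA9, was at 0.73 ± 0.32 (SE; limma adjusted p = 0.647), with -0.01, 1.72 and 0.47 by time, and GRPEL2 at 0.37. The 7 measured of 8 genes listed under prefoldin included PFDN1 at 0.54 and PDRG1 at -0.43 and had medians of -0.02, -0.33 and 0.08.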

How the data were processed

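Total RNA was amplified to biotinylated cRNA and hybridised to Illumina bead arrays, per the labels' protocols. The deposited log2 values of the authors cover 47231 probes from 6.20 to 13.91, and the sorted columns differ by at most 9e-04, so they had been quantile-normalized. Base 2 was inferred from that range. The sources used here name no software or background correction. A table of values before normalization was left out, since its 6 value columns match no label.

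The threshold of 6.7 lies 3.0 SDs above the most frequent value, 6.49. Of all probes 19894 passed it. In the platform annotation 30113 probes carry 1 gene symbol, 8 carry several and 17110 carry none. By gene identifier 30074 matched RefSeq, which changed 0 symbols. Each gene took its kept probe of the highest mean, and other kept probes served as checks.

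Treatment effects came from limma 3.58.1 (R 4.3.3, statmod 1.5.0) on 6 arrays with time as a 3-level factor, leaving 2 residual degrees of freedom, with Benjamini-Hochberg adjustment over 11100 genes and a two-sided threshold of 0.05. A change of the effect with time counts as error there. Slopes used treatment, hours and the product of both. Time pairs the arrays, as the labels give 1 array per treatment at each time, and a fit without that block was an alternative. Values in every array are given for genes of the smallest p in any test, past 2-fold at a time or 1.5-fold at 2 times, without overlap, or with an opposed probe at least 0.5 away; genes outside this rule are given by their differences. The members and lists were chosen with earlier results of these data known. The number of arrays limits the precision. The fits were tested on simulated data with independent noise of equal spread on every array and large changes. That checks the calculation and does not show how the fits perform on unequal arrays such as these.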

Additional observations from a re-analysis of the deposited data

Results flagged for a closer look

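Probes that the filter on dim values left out held a signal in 2 cases that lay above both the background threshold and every DMSO array. The dim HSPD1 probe reached 6.79 in the pimasertib array of 4 h, where the highest DMSO array was at 6.74. The dim CHORDC1 probe reached 6.71 in the pimasertib array of 8 h, where the highest DMSO array was at 6.63. Both values are within 0.10 of the threshold of 6.7.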

How the results depend on the processing

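Of 237 alternative values for 32 results, 214 stayed within the spread between times or within 1.5 times the count. Part of these could not move, since a fit without the time block or with another prior leaves the medians as they were. The spread was also wide, at 0.24 for cytosolic and 0.46 for ER genes. A cytosolic median of 0.05 without the DMSO array of 8 h, in place of 0.26, thus counted as staying. The count of genes called for pimasertib minus DMSO was 0 in limma as reported, 0 without the replicate block of time, 2 with a stricter background threshold of 6.91, 2 with a trended and robust prior, and 0 to 101 when a time pair was left out, with 101 without the 12 h pair and 0 chaperone genes called in any of these. Over all alternatives the adjusted p of chaperone genes was at least 0.132 (limma). The median over all members was 0.071 without the 8 h pair, 0.064 without the DMSO array of 8 h and 0.091 with array weights, 0.12 with the mean over kept probes, and 0.071 to 0.32 over the time pairs left out. Over those pairs it ran from 0.06 to 0.40 for cytosolic, -0.07 to -0.03 for CCT, 0.19 to 0.36 for mitochondrial and -0.04 to 0.40 for ER genes. With all 6 arrays above background the 12 h median over all members was -0.038, mitochondrial medians were 0.12 at 8 h and 0.046 at 12 h, and the ER group was left with HSP90B1, at -0.67 at 12 h and -0.27 over the times. A stricter threshold, which left out DNAJC3, put the ER median at 1.35 at 12 h. Without HSPE1, chosen after seeing the data, mitochondrial medians were 0.35 at 8 h and 0.27 at 12 h, and the mean over kept probes gave 0.046 at 12 h. Cyclic loess turned the CCT median at 8 h to 0.014. Members without overlap and higher were 3 with all 6 arrays above background and 8 without the DMSO array of 8 h (14.2% of all genes), and those lower were 1 with the mean over probes, 1 with cyclic loess and 4 without that DMSO array (14.9% of all genes), a setting added after seeing the data. With the mean over kept probes 0 members were at least 1.5-fold lower at 4 h and 1 at 8 h. The cause of these moves was not tested, beyond the fewer genes or arrays each leaves.

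Signs held in all 14 alternatives for 12 of 38 genes, among them BAG3, HSPB1 and TCP1, and in the 13 that gave a value for HSPA1B, HSPA5 and DNAJB4. Not all of these alternatives could change a sign. A fit without the time block, with hours as a linear covariate or with another prior leaves the estimate as it was. Leaving out the filter or raising its threshold changed 0 signs. BAG3 and HSPB1 had 1 kept probe each, so the mean over kept probes could not move them. HSPE1 turned from 2.22 to -0.78 where all 6 arrays had to exceed background. Without the 4, 8 or 12 h pair, 1, 8 and 10 genes changed sign. With 2 times left, slopes have no residual degrees of freedom and no test.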

Other observations

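Proteasome subunits, the other arm of protein quality control, were listed by name as well, and 23 of 25 were measured. Of these 2 were higher and 6 lower at all 3 times, against 17.4% and 15.7% of all genes. The medians were -0.02, 0.21 and -0.04 at 4, 8 and 12 h. PSMA5, an alpha ring subunit, was at -0.65 ± 0.23 (SE) with all pimasertib arrays below all DMSO arrays, and differed by -0.07, -0.84 and -1.04 at 4, 8 and 12 h. PSMA3, of the same ring, was at 0.89 ± 0.33 with -0.13, 1.15 and 1.65 by time. PSMD14, the deubiquitinase of the lid, was at -0.42 ± 0.20. None passed over all genes, with limma adjusted p of 0.647, 0.647 and 0.650.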
